A study of Mus musculus with 12 samples.

Results

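The longest intergenic transposable element (TE) copies of the mouse genome were followed here in RNA from newborn male germ cells with and without intact Morc1. A copy belongs to this set if it is listed in the deposited table of TE copies for the day of birth (postnatal day 0, P0), is over 6000 bp long, and overlaps no GENCODE M21 gene (GRCm38) on either strand. The rule used position and length, not the measured values, and 4414 of the 298593 listed copies met it. Of these, 316 overlap a gene of the RefSeq annotation, which the rule did not use. Listing itself depended on reads, because the lowest total over the 6 libraries was 10 reads. Of the 6092 listed copies over 6 kb, the other 1678 overlap a gene and served as a comparison. So did the intergenic copies of over 5 and up to 6 kb (below, 5 to 6 kb), of which 4786 were listed.

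Male germ cells (gonocytes) were isolated from the testis through the Mvh-Venus transgene, a germ cell reporter that both groups carry. The comparison is between Morc1 (-/-) mice, called KO, and Morc1 (+/-) mice, called het, with 3 libraries each. The controls are therefore heterozygotes, not wild-type animals. Samples of P3 are also labelled, with 3 het and 3 KO, and were not analysed here. The labels do not say whether the libraries of a group came from separate animals, so p-values measure the spread between these samples, which may be technical.

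Transposable elements are repeats descended from mobile DNA, and most old copies are short remnants. Among the longest copies in the mouse are LINE-1 elements, which copy themselves through an RNA with their own reverse transcriptase, and endogenous retroviruses, whose coding region lies between long terminal repeats. Fetal male germ cells erase much of their DNA methylation and then restore it, with small RNAs of the piRNA class guiding part of the restoration at transposons. MORC1, a MORC family ATPase made in germ cells, is required for transposon silencing in the male germ line. The TE table gives position and strand but no family name, so the copies are described by position, length and strand alone.

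No genome sequence was read here, and sequence inside the copies came from RefSeq promoter windows (GRCm38.p6), which span 250 bases before to 50 bases after a gene's start. In all, 21 such windows overlapped 20 of the 4414 copies, 14 of them lay wholly inside a copy, and 13 of those 14 ran on the copy's own strand. Of the 20 copies, 11 were 7.5 to 7.75 kb long. The other 4394 had no window. A set of 3 windows, chosen after the values were seen, is shown because copies at 3 different places carry it almost unchanged, and because all 3 copies were higher in KO. The stretch begins at base 4520, 4491 and 4519 of their copies, counted along the strand. Capitals mark position 151, counted from 1 at the left end, the single base that differs among the 3.

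Gm46854 (chr4:51876398-51876696, plus strand): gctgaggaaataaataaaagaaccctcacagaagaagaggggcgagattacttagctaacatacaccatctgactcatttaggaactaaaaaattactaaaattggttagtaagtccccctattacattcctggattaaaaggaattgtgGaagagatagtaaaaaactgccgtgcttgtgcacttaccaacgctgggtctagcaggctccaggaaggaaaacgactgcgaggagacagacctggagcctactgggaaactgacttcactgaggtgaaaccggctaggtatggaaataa
Gm46950 (chr6:7724024-7724322, plus strand): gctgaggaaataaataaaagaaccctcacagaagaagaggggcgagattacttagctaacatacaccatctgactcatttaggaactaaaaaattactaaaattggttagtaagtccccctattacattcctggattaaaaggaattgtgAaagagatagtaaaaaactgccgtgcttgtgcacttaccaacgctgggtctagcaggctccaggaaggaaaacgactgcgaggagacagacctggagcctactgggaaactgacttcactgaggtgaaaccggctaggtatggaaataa
Gm40405 (chr6:132965166-132965464, minus strand): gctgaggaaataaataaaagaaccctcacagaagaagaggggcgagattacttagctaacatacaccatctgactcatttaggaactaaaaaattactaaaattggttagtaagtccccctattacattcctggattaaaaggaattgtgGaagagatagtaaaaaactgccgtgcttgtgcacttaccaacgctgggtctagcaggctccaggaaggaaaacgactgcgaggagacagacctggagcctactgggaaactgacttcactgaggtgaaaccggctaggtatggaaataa

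The windows of Gm46854 and Gm40405, on 2 chromosomes, were identical over these 299 bases, and that of Gm46950 differed by G151A from Gm46854. A read from this stretch cannot be placed at one of these copies by sequence unless it covers that base, and then not between the first and the third. How reads matching several places were counted is not given in the sources used here, so a value belongs to a copy as the authors assigned it. The copy around Gm46854 (chr4:51871879-51879434, plus strand, 7556 bp) had 63.3, 51.6 and 56.6 normalized counts in the het libraries, in the order of their replicate numbers, and 251, 409 and 127 in KO, in the same order as everywhere below. The copy around Gm40405 (chr6:132962428-132969982, minus strand, 7555 bp) had 16.9, 8.97 and 12.5 in het and 112, 99.8 and 62.4 in KO. All 3 KO libraries lay above all 3 het libraries at both copies, and limma gave log2 changes of 2.03 (SE 0.44, adjusted p = 0.00876) and 2.74 (SE 0.47, adjusted p = 0.00253). The copy around Gm46950 (chr6:7719534-7727060, plus strand, 7527 bp) had 75.9, 48.2 and 43.1 in het and 193, 297 and 116 in KO. Its groups did not overlap either, and its log2 change was 1.78 (SE 0.44, limma adjusted p = 0.0157). The adjusted p of that copy was 0.0536 without het replicate 2, 0.0650 without KO replicate 1 and 0.0639 without KO replicate 2. It was 0.0899 with quantile normalization and 0.0753 with limma without a trend, and in the last setting that of the Gm46854 copy was 0.0502. Over the 20 copies with a window, 15 could be tested and 10 were higher in KO, a share close to the 63.8% of all tested intergenic copies over 6 kb, while 15.6% of all tested TE copies were higher. Between different copies, 8 pairs of windows shared at least one stretch of 20 bases.

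Normalized counts are the deposited values, read counts divided by 1 size factor per library. Morc1 itself checks the labels: it had 7248, 7485 and 4126 normalized counts in het and 1360, 1343 and 1794 in KO. Its KO mean was 23.8% of the het mean (log2 change -2.03, SE 0.27, limma adjusted p = 0.0109), and every KO library lay below every het library. The adjusted p was 0.0511 without het replicate 1, 0.101 without KO replicate 1 and 0.0663 without KO replicate 3, with log2 changes from -2.17 to -1.90, and 0.0890 with limma without a trend. The gene table held 28363683 to 32816861 reads per library, and 1974504 to 3703419 fell on TE copies. The copies over 6 kb took 32548 to 68711 reads per het library and 232024 to 337368 per KO library. The 7 germ cell markers, among them Ddx4 and Dazl, summed to 120909 to 184854 in het and 123727 to 186556 in KO. The 5 Leydig cell markers, Insl3 and genes of steroid synthesis in the testis, summed to 776, 1079 and 24921 in het and 510 to 1075 in KO, so het replicate 3 stood apart. All 6 Sertoli cell markers had a negative change, and they summed to 17255 to 35508 in het and 12404 to 17666 in KO, again highest in het replicate 3. The 3 myoid, 3 endothelial, 3 macrophage and 3 erythroid markers had sums of 2531 to 3394, 1222 to 2071, 263 to 432 and 1150 to 1937 over the 6 libraries, and no marker of any list was at 0 in a library. Of the 30 markers, limma called 0, with 3 lower and 0 higher at an unadjusted p under 0.05. Over all 26005 tested genes it called 0.431% higher and 0.0423% lower, and 1783 passed that unadjusted p in either direction. edgeR called 0 and DESeq2 called 1, the Sertoli gene Clu, lower in KO.

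The copies were higher in KO as a group. Their normalized counts summed to 38233, 36510 and 65856 in het and to 243051, 261130 and 198467 in KO. The means were 46866 ± 16468 (SD, n = 3) and 234216 ± 32252 (SD, n = 3), and the ratio of geometric means was 5.16. No KO library overlapped a het library, and exact permutation of the libraries (two-sided) gave p = 0.1, which is as small as 3 against 3 allows. The highest het library was replicate 3, which also held the most Leydig and Sertoli marker counts, and without it the ratio was 6.23. The part of those cells in the het values was not tested. In bulk RNA, more cells transcribing a copy and more RNA per cell cannot be told apart.

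The size of the rise did not rest on the scaling of the TE table alone. Per 100 reads on genes, the copies took 0.112, 0.0992 and 0.238 reads in het and 0.795, 1.19 and 0.716 in KO. Their share of all TE reads was 1.72%, 1.65% and 2.74% in het and 8.89%, 9.11% and 7.61% in KO. Their mean share thus went from 2.03% ± 0.609 to 8.53% ± 0.811 (SD, n = 3 each), a difference of 6.50 percentage points. The groups did not overlap in either measure, and both exact permutation tests gave p = 0.1.

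Length set these copies apart from short intergenic copies more than from the next shorter class. Their reads relative to those of intergenic copies of up to 1 kb were 4.63 times as high in KO as in het, and relative to copies of 1 to 5 kb 2.96 times. Relative to copies of 5 to 6 kb the ratio was 1.14, 1.13 and 1.04 in het and 1.31, 1.28 and 1.22 in KO, a change of 1.16 times. The intergenic copies over 6 kb also rose more, in relative terms, than those over 6 kb that overlap a gene. The ratio of summed reads was 1.07, 1.06 and 1.25 in het and 2.03, 1.97 and 2.13 in KO, a change of 1.82 times. In each of the 4 ratios the 3 KO libraries lay above the 3 het libraries, with exact permutation p = 0.1 and 0.1 after Benjamini-Hochberg adjustment over the 4. For the ratio to copies of 5 to 6 kb the libraries overlapped in other settings: over copies longer than 7000 bp the change was 1.15 times, and over copies that overlap no protein-coding gene 1.04 times, each with exact permutation p = 0.5. Per kb of listed copy, the intergenic copies over 6 kb had 1.34, 1.28 and 2.31 normalized counts in het and 8.51, 9.14 and 6.95 in KO. Those overlapping a gene had higher means per kb in both groups, 3.77 in het and 10.6 in KO, against 1.64 and 8.20. Of their listed copies 41.2% were higher in KO by limma, against 41.9% of the intergenic ones. Of the tested copies the shares were 55.4% and 63.8%.

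**Figure D1:**
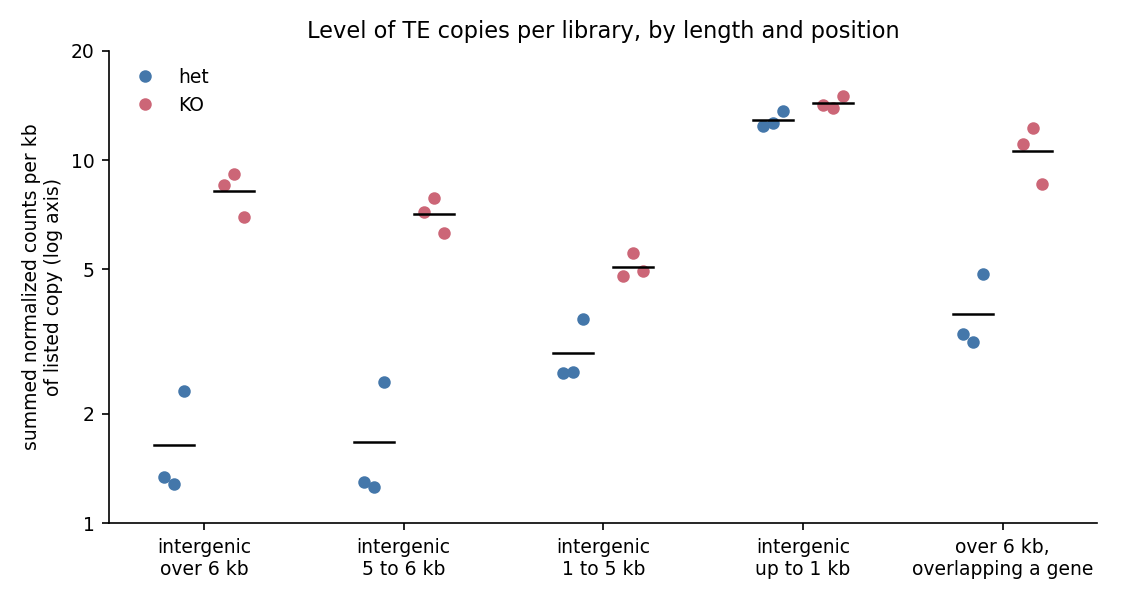
Summed normalized counts per kb of listed copy (log axis) for 5 classes of TE copies; each point is 1 library, het or KO, and the bar is the group mean. In the intergenic copies over 6 kb the het libraries sit between 1.28 and 2.31 and the KO libraries between 6.95 and 9.14.

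Copy by copy, the rise was spread over many places. Of the 4414 copies, 2903 had a mean of at least 10 normalized counts and were tested with limma, and 1851 of them were higher in KO at a Benjamini-Hochberg adjusted p under 0.05. Another 6 were lower, 1046 were neither, and 1511 were below the minimum and not tested. Over all 49781 tested TE copies, 15.6% were higher and 0.735% lower. The higher copies were 63.8% of those tested here and 41.9% of those listed. A copy that passed the minimum only through its KO libraries had to differ, so the count was also taken over copies with a het mean of at least 10. There 834 of 1519 were higher (54.9%) and 6 lower, against 5.52% higher and 0.754% lower among all copies with that het mean. These shares include untested copies. One with that het mean but a mean under 10 over the 6 libraries was not tested and could not be called lower.

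The same pattern held without a test. The median log2 change over all 4414 was 2.02, against -0.07 over all listed copies, and 3833 of the 4414 had a positive change. In 2616 copies (59.3%) all KO libraries lay above all het libraries, and in 61 all lay below. Over all listed copies these shares were 9.24% and 6.75%. The median copy had 5.27, 4.49 and 9.58 normalized counts in het and 26.7, 28.6 and 25.7 in KO. At least 1 read fell on 3624 to 3956 of the copies in a het library and on 4105 to 4247 in a KO library. In het, 507 of the copies (11.5%) had at most 3 reads in every library, and 99 had none at all. In KO these numbers were 96 and 21. Over all listed copies, 69164 (23.2%) were at most 3 in every het library and 48802 in every KO library. Copies this low in a group reached the lowest listed total, 10 reads, only with reads of the other group. These counts therefore depend partly on the listing.

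**Figure D2:**
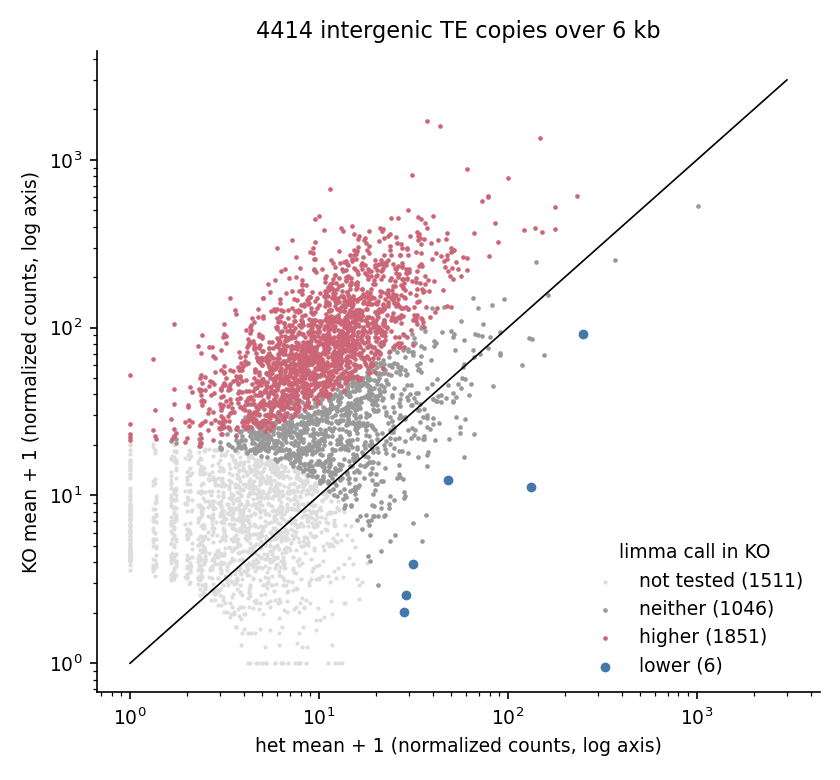
Mean normalized count (plus 1, log axes) of each of the 4414 copies in het (x axis) and KO (y axis), coloured by limma call; the diagonal marks equal values. The 1851 higher copies lie above the diagonal, with het means of up to 230, and the 6 lower copies lie below it; the 3 copies with the highest het means are not among the higher ones.

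Among the 1851 higher copies the median log2 change was 3.09, with a range from 1.13 to 6.10, and in 1848 of them all KO libraries lay above all het libraries. Of these 1851, 68 had at most 3 reads in every het library. The 3 KO libraries did not rank alike: the highest KO value was in KO replicate 2 for 896, in replicate 1 for 603 and in replicate 3 for 352. In het, replicate 3 held the highest value for 2500 of all 4414 copies. Few loci did not carry the sum, since 581 copies were needed to reach 50% of the KO sum, and the 10 highest held 4.11% of it. In het, 717 copies made up 50% of the sum.

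The copies highest in KO were far lower in het. The highest was chr4:56434618-56441176, a plus-strand copy of 6559 bp, 46037 bases from the pseudogene Gm12518. It had 46.4, 39.3 and 23.0 normalized counts in het and 2290, 1981 and 859 in KO. The KO libraries were well apart from het but spread among themselves, and the log2 change was 5.46 (SE 0.45, limma adjusted p = 0.000268). Next came chr16:56324724-56330866, a minus-strand copy of 6143 bp, with 19.0, 14.6 and 93.9 in het and 1216, 1579 and 1997 in KO. Here KO replicate 3 was the highest and het replicate 3 stood above the other het libraries (log2 change 5.66, SE 0.59, limma adjusted p = 0.000398). The other 3 of the 5 highest rose too. One of these, chr5:68213182-68222238, is 9057 bp long and had 27.4, 32.5 and 30.7 in het and 941, 1046 and 440 in KO. It lies on the minus strand, 46783 bases from Grxcr1, and its log2 change was 4.60 (SE 0.40, limma adjusted p = 0.000392).

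The 10 largest rises, with log2 changes from 5.56 to 6.10, kept their call in each of the 15 or 16 other settings they entered. Of the 10, 9 lie on the minus strand, as do 3818 of all 4414 copies. Chromosome 3, with 315 of the 4414, holds 4 of the 10, a count noticed after the values were seen. The largest was chr12:32326329-32332866 (minus strand, 6538 bp), with 2.11, 0 and 0 normalized counts in het and 61.0, 117 and 136 in KO. Its het value rested on 2 reads in replicate 1, against 64, 151 and 159 reads in KO (log2 change 6.10, SE 0.74, limma adjusted p = 0.000529). At chr6:138216063-138222245 (minus strand, 6183 bp) no het library had a read, and KO had 54.4, 56.5 and 41.9. Its KO mean was at least 16.25-fold higher than a floor of 3 reads per het library (limma adjusted p = 0.00127). The highest level among these 10 after the chr16 copy was at chr3:140766932-140773911 (minus strand, 6980 bp), with 3.16, 15.7 and 12.5 in het and 608, 1094 and 321 in KO. Its KO libraries differed by more than 3 times and still lay far from het (log2 change 5.94, SE 0.59, limma adjusted p = 0.000398). The plus-strand copy, chr6:64881306-64887334 (6029 bp), had 4.22, 0 and 0 in het and 108, 107 and 53.9 in KO. Its nearest gene, the pseudogene Gm18839, lies 2177 bases away, and its log2 change was 5.64 (SE 0.81, limma adjusted p = 0.00102).

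Against this background, 6 copies fell, 3 of them on chromosome X, a count noticed after the values were seen. At chrX:119793032-119799593 (minus strand, 6562 bp) the het libraries had 157, 198 and 38.3 normalized counts and the KO libraries 18.1, 12.4 and 0. The het libraries spread widely without reaching the KO values (log2 change -4.08, SE 1.01, limma adjusted p = 0.0169). At chr19:26824179-26830366 (minus strand, 6188 bp) het had 17.9, 20.2 and 43.1 and KO had 0, 3.10 and 0. Only KO replicate 2 had reads there, 4 in all, and the log2 change was -4.03 (SE 1.03, limma adjusted p = 0.0192). This copy lies 271 bases from the GENCODE antisense gene 4931403E22Rik and overlaps a RefSeq gene. The fall at chr7:43235521-43241627 (plus strand, 6107 bp) was the smallest of the 6 and at the highest level, with 236, 285 and 229 in het and 86.8, 119 and 67.6 in KO. Its groups were tight and apart (log2 change -1.48, SE 0.36, limma adjusted p = 0.0154). The other 3, chrX:119291847-119297924, chrX:127808856-127815307 and chr5:41354080-41360149, had het means of 27.8, 30.6 and 47.0 and KO means of 1.56, 2.88 and 11.4. All 6 lost their call in some other setting, in 3 to 11 of the 15 or 16 they entered. Without 1 het library, het replicate 1 or het replicate 2, none of the 6 kept it: limma's adjusted p was 0.0514 to 0.405 and 0.0607 to 0.211 after leaving out those libraries.

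Copies already high in het did not behave as one. The highest in het was chr5:72563861-72571061 (plus strand, 7201 bp), with 1178, 879 and 995 normalized counts in het and 751, 458 and 382 in KO. All KO libraries lay below all het libraries, yet the change did not pass the test (log2 change -0.99, SE 0.37, limma adjusted p = 0.102). It overlaps a RefSeq gene and lies 1112 bases from the pseudogene Gm34144. The second, chr7:6616683-6624199 (plus strand, 7517 bp), had 341, 335 and 426 in het and 381, 323 and 53.0 in KO. Its nearest gene is Zim2, an imprinted zinc finger gene, 27548 bases away; KO replicate 3 was low and the groups overlapped (log2 change -0.96, SE 0.62, limma adjusted p = 0.408). Near Scp2, a gene for a sterol carrier protein, chr4:108146732-108153788 (minus strand, 7057 bp) had 222, 218 and 250 in het and 629, 543 and 646 in KO. Near Klhl36, chr8:119890278-119896343 (minus strand, 6066 bp) had 170, 147 and 216 in het and 569, 450 and 543 in KO. Both rose, by 1.39 (SE 0.32, limma adjusted p = 0.0114) and 1.56 (SE 0.34, limma adjusted p = 0.00803) on the log2 scale, smaller changes than the median of 3.09 among the higher copies. Without KO replicate 1 their adjusted p was 0.0649 and 0.0515, and with limma without a trend 0.0973 and 0.0718.

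**Figure D3:**
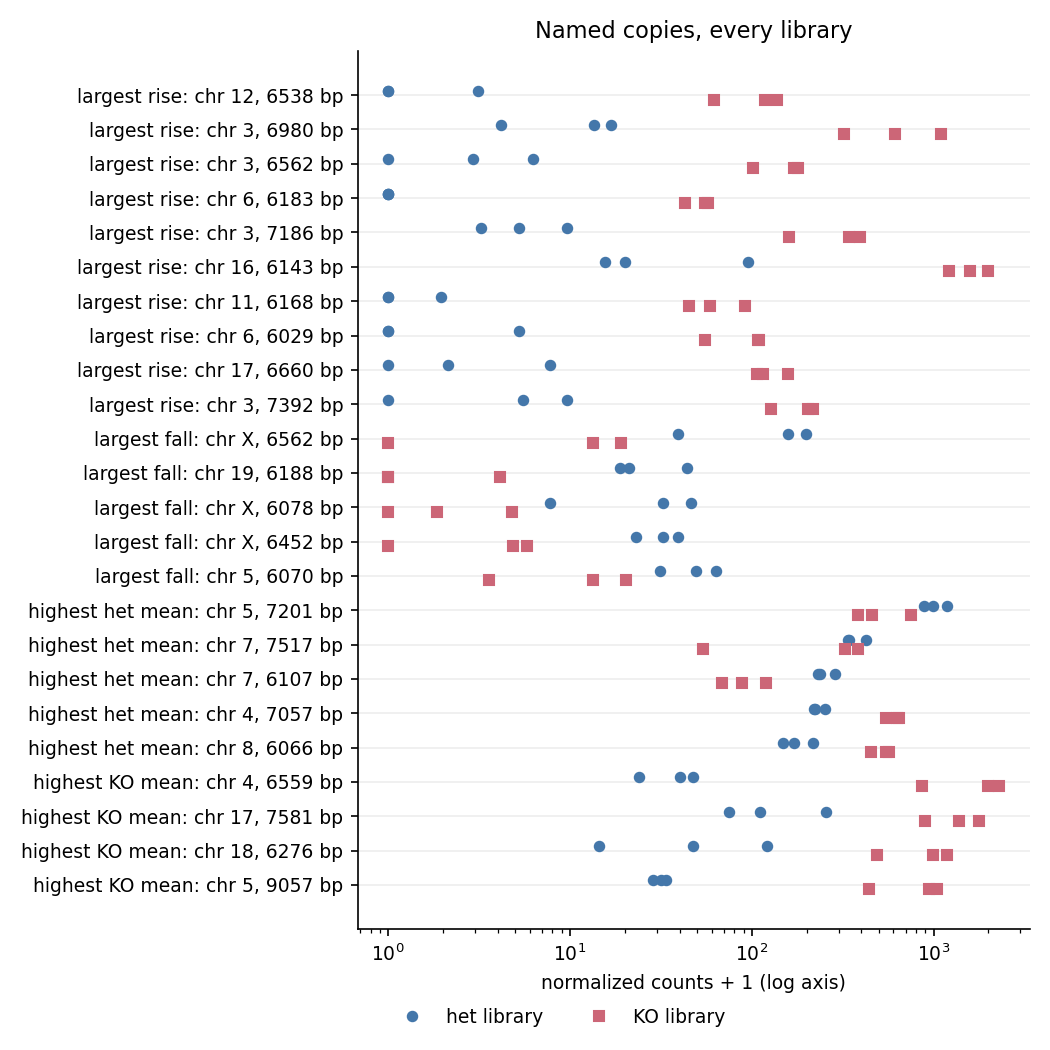
Normalized count (plus 1, log axis) of named copies in every library, with 1 row per copy and 1 point per library, het or KO. In the copies with the largest rises the 3 KO points lie apart from the 3 het points to the right, and in the 5 largest falls to the left.

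The change differed with length. The longest copy has 15139 bp, with a median of 6356 bp over the set, so most copies lie close to the threshold. Of 3180 copies of 6 to 6.5 kb, 1995 were tested, 1132 were higher and 5 lower, with a median log2 change of 1.85 over those listed. Of 776 copies of 6.5 to 7 kb, 608 were tested, 500 were higher and 1 lower, with a median of 2.90. Of 458 copies over 7 kb, 300 were tested and 219 were higher, with a median of 2.06. The copies of 6.5 to 7 kb had the highest ratio of mean sums: they summed to 6679, 6392 and 11087 in het and 67684, 73710 and 50447 in KO, a 7.94-fold difference. In the other 2 classes it was 4.17-fold and 5.19-fold, in the order given. These differences between length classes are descriptions, since copies are not replicates of a condition.

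In finer steps of 250 bp from 6 kb, the ratio was higher with each step up to 7 kb and uneven above it. This was not a steady rise from shorter intergenic copies. From 5 to 6 kb the 250 bp steps had ratios of 3.055, 4.56, 5.4 and 5.41, and the first step over 6 kb was lower, at 3.81. The ratio of mean sums was 3.81 at 6 to 6.25 kb, 4.58 at 6.25 to 6.5 kb, 7.31 at 6.5 to 6.75 kb and 9.12 at 6.75 to 7 kb. In that last step 183 of the 244 listed copies were higher in KO. Of the copies between 7 and 7.5 kb those of the lower step had a ratio of 5.05 and those of the upper step 7.61. The copies of 7.5 to 7.75 kb, the length of the 3 whose sequence is shown, stood below their neighbours with a ratio of 3.63, a median log2 change of 1.05 and 25.8% of listed copies higher. Above them, few copies were left, 9 in the next step with a ratio of 11.6 and 34 over 8 kb with 9.30. The step of 7.5 to 7.75 kb was singled out after its values were seen. It also had more copies with another same-strand copy within 50 bases: 26.3% at the 5′ side and 32.4% at the 3′ side, against 8.38% and 5.05% over the whole set.

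Strand split the set unevenly, and differently on either side of the threshold. Of the 4414 copies 3818 lie on the minus strand and 596 on the plus strand, while all listed TE copies divide into 149862 minus and 148731 plus. Intergenic copies of 5 to 6 kb show the opposite, with 3754 on the plus and 1032 on the minus strand. Among copies over 6 kb that overlap a gene, 1444 of 1678 lie on the minus strand. Taken above 5 kb, the 2 strands held similar numbers, 4350 plus and 4850 minus. A length threshold of 6 kb thus selected mostly minus-strand copies, and why lengths in the table differ by strand was not tested.

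The strands differed in the change of the listed copies more than in that of the tested ones. Above 6 kb the minus-strand copies summed to 30224, 29496 and 55279 in het and to 202155, 216733 and 171427 in KO, a 5.13-fold difference in mean sums. Of 2604 tested, 1665 were higher and 5 lower, and the median log2 change of those listed was 2.12. The plus-strand copies summed to 8009, 7014 and 10577 in het and to 40896, 44397 and 27040 in KO, 4.39-fold. Of 299 tested, 186 were higher and 1 lower, with a median of 1.24 over those listed. Over the tested copies the medians were alike, 2.62 on the minus and 2.64 on the plus strand, and 63.9% and 62.2% were higher. Within the set the order of the strands varied with length: at 6 to 6.5 kb the ratio of mean sums was 5.07 on the plus and 4.02 on the minus strand, at 6.5 to 7 kb 6.62 and 8.12, and over 7 kb 2.87 and 6.74. At 5 to 6 kb the plus strand had the larger change, with 4.74-fold and a median of 2.03 over those listed against 2.35-fold and 1.10 on the minus strand. Over all intergenic copies above 5 kb the strands were close, at 4.67-fold for plus and 4.63-fold for minus, with 62.5% and 59.9% of tested copies higher.

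**Figure D4:**
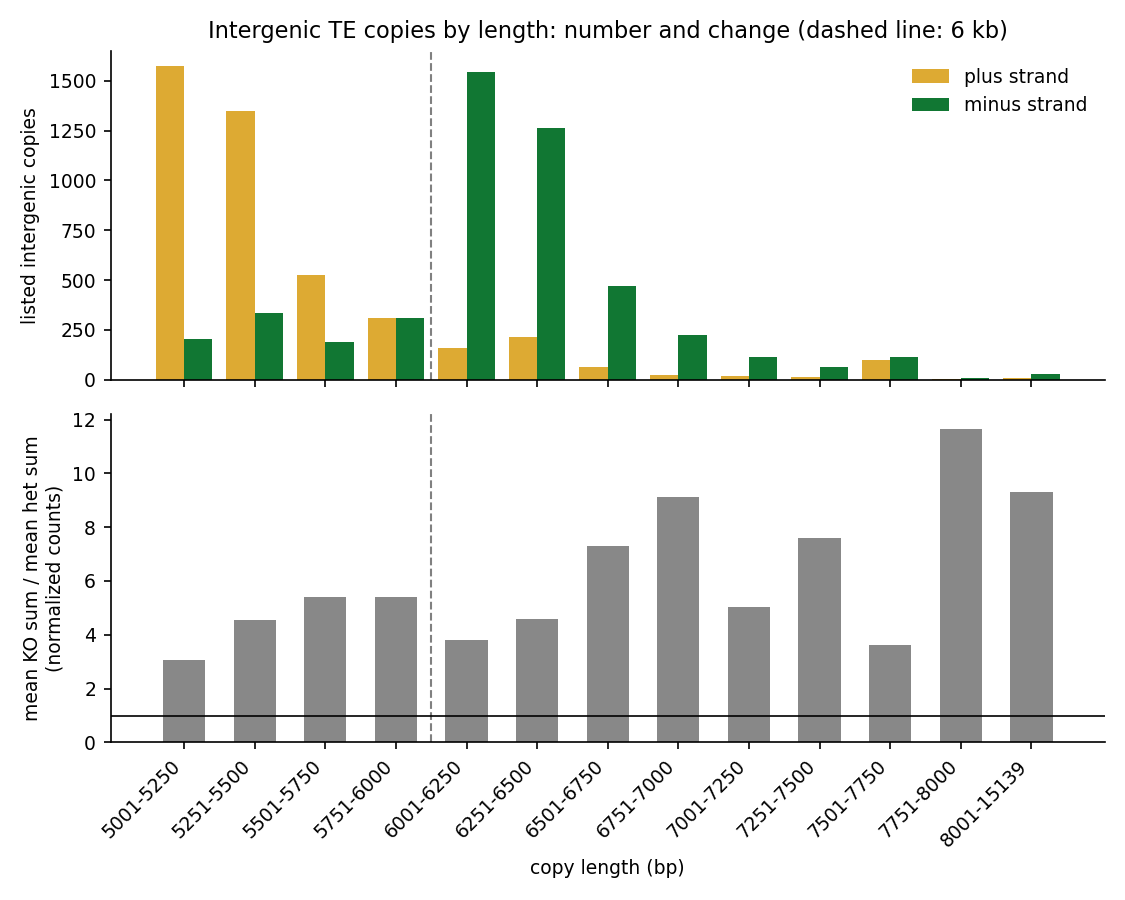
Number of listed intergenic copies on each strand (upper panel) and the change between KO and het (lower panel) by copy length in steps, with the 6 kb threshold dashed. Minus-strand copies outnumber plus-strand copies above the threshold, 1545 to 161 at 6 to 6.25 kb, and plus-strand copies outnumber minus-strand ones at 5 to 5.25 kb, 1573 to 202.

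The 3 longest copies were all higher in KO. The longest, chr3:6297412-6312550 (plus strand, 15139 bp), had 17.9, 28.0 and 29.7 normalized counts in het and 270, 317 and 111 in KO. The next, chr10:27812529-27825766 (minus strand, 13238 bp), had 10.5, 20.2 and 12.5 in het and 339, 228 and 110 in KO. KO lay above het in every library of both (log2 changes 3.05, SE 0.47, and 3.79, SE 0.50, limma adjusted p = 0.00138 and 0.000689). The third, chrX:133339341-133351629 (minus strand, 12289 bp), had 17.9, 0 and 21.1 in het and 98.2, 110 and 82.1 in KO. Its groups were apart as well, and het replicate 2 was at 0 (log2 change 3.70, SE 0.98, limma adjusted p = 0.0226). Leaving out KO replicate 1, 2 or 3 gave adjusted p of 0.0964, 0.0949 and 0.0825, and it was 0.122 with a pseudocount of 0.1, 0.0587 without a trend and 0.0518 with edgeR.

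At the threshold itself, the 3 shortest copies inside and the 3 longest outside both held copies that moved and copies that did not. Inside, each 1 base over 6000 bp, chr14:95362783-95368783 had means of 8.75 in het and 49.9 in KO, chr16:55126518-55132518 had 40.8 and 79.8, and chr1:62864970-62870970 had 2.09 and 13.4. Outside, at 6000 bp, chr1:27194016-27200015 had means of 4.87 and 74.4, chr10:10518469-10524468 had 14.0 and 22.6, and chr3:41882962-41888961 had 2.199 and 3.65.

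Higher copies lay at all distances from genes. The median distance to the nearest GENCODE gene was 25.6 kb, and the nearest gene was a processed pseudogene for 1654 copies, protein-coding for 1066 and a lincRNA for 552. Read along the copy's strand, the nearest gene lay upstream of the copy for 2208 and downstream for 2206, whichever strand the gene was on. Within 10 kb of a gene, 472 of 780 tested copies were higher and 2 lower, at 10 to 100 kb 1108 of 1714 were higher and 3 lower, and beyond 100 kb 271 of 409 were higher and 1 lower. The median log2 changes of the listed copies were 1.86, 2.11 and 2.26 in that order, and the ratios of mean sums 4.28, 5.29 and 5.54. The copies beyond 100 kb summed to 4288, 4135 and 8059 in het and 30910, 33468 and 26889 in KO.

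Single copies at both extremes showed the spread. The copy farthest from a gene, chr1:114615538-114621748, lies 597441 bases from Gm4854 and had 6.33, 0 and 23.0 normalized counts in het and 31.5, 35.6 and 53.9 in KO. Its groups did not overlap, but the change did not pass the test (log2 change 2.85, SE 0.99, limma adjusted p = 0.0763). The second farthest, chr1:145819117-145825560, had 11.6, 5.61 and 13.4 in het and 58.2, 37.9 and 64.2 in KO and was higher (log2 change 2.32, SE 0.54, limma adjusted p = 0.0119), with an adjusted p of 0.0686 without KO replicate 1 and 0.0609 without KO replicate 3. The third, chr6:9710692-9716961, had 15.8, 11.2 and 30.7 in het and 24.8, 1.55 and 35.9 in KO. Its groups overlapped (log2 change -0.47, SE 0.94, limma adjusted p = 0.830).

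At the near end, chrX:73300001-73307711 lies 5 bases from the pseudogene Gm5639 and had 8.44, 2.24 and 13.4 in het and 6.68, 13.9 and 0 in KO, too low to be tested. The copy chr8:19038457-19045336 lies 10 bases from the pseudogene Gm15366 and had 6.33, 1.12 and 5.75 in het and 65.8, 50.3 and 64.2 in KO. Another, chr1:130557090-130563309, lies 14 bases from Gm16083 and had 2.11, 6.73 and 11.5 in het and 65.8, 38.7 and 39.4 in KO. Both of the latter overlap a RefSeq gene. They were higher, with log2 changes of 3.68 (SE 0.65, limma adjusted p = 0.00276) and 2.83 (SE 0.65, limma adjusted p = 0.0117). For the second of them the adjusted p was 0.0902 without KO replicate 1.

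The copies were mostly scattered. The median gap between neighbours on a chromosome was 198 kb, and joining copies within 10 kb left 4218 loci, of which 4034 held 1 copy, 172 held 2 and 12 held 3. Of the 196 neighbouring pairs under 10 kb apart, 150 shared a strand (76.5%). The share was much the same for pairs farther apart, 79.7% at 10 to 100 kb and 76.5% over 100 kb. Both copies were higher in 41 of these pairs, 1 of the pair in 90 and neither in 65. Of the 2985 pairs over 100 kb apart, both were higher in 520, 1 in 1450 and neither in 1015. Grouped by the nearest other copy, 163 of 239 tested copies were higher with one under 10 kb away, 810 of 1242 at 10 to 100 kb and 878 of 1422 beyond 100 kb. The ratios of mean sums were 5.67, 5.32 and 4.66.

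A group of 3 copies on chromosome 11, chr11:41098358-41121740, was higher at each copy. The 3 summed to 17.9, 18.0 and 45.1 normalized counts in het and to 352, 358 and 336 in KO, with no overlap. Its last copy, chr11:41115573-41121740, is among the 10 largest rises. Neighbours could also differ. The closest pair overlaps by 2 bases on chromosome 1, both on the minus strand near Cdh20, a cadherin gene. The copy chr1:105013762-105021027 had 42.2, 34.8 and 78.6 in het and 236, 303 and 198 in KO. Beside it, chr1:105021026-105027382 had 6.33, 6.73 and 8.63 in het and 8.58, 10.1 and 5.13 in KO. Of the pair, the first was higher (log2 change 2.29, SE 0.41, limma adjusted p = 0.00300), and the second was too low to be tested.

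By chromosome, X held the most copies, 495, followed by chromosome 1 with 402 and chromosome 4 with 343, while 19 held 39 and Y 6. Of tested autosomal copies, 57.7% on chromosome 7 (94 of 163) to 69.6% on chromosome 19 (16 of 23) were higher. The upper end thus rests on few copies. On X the share was 64.2% (185 of 288).

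**Figure D5:**
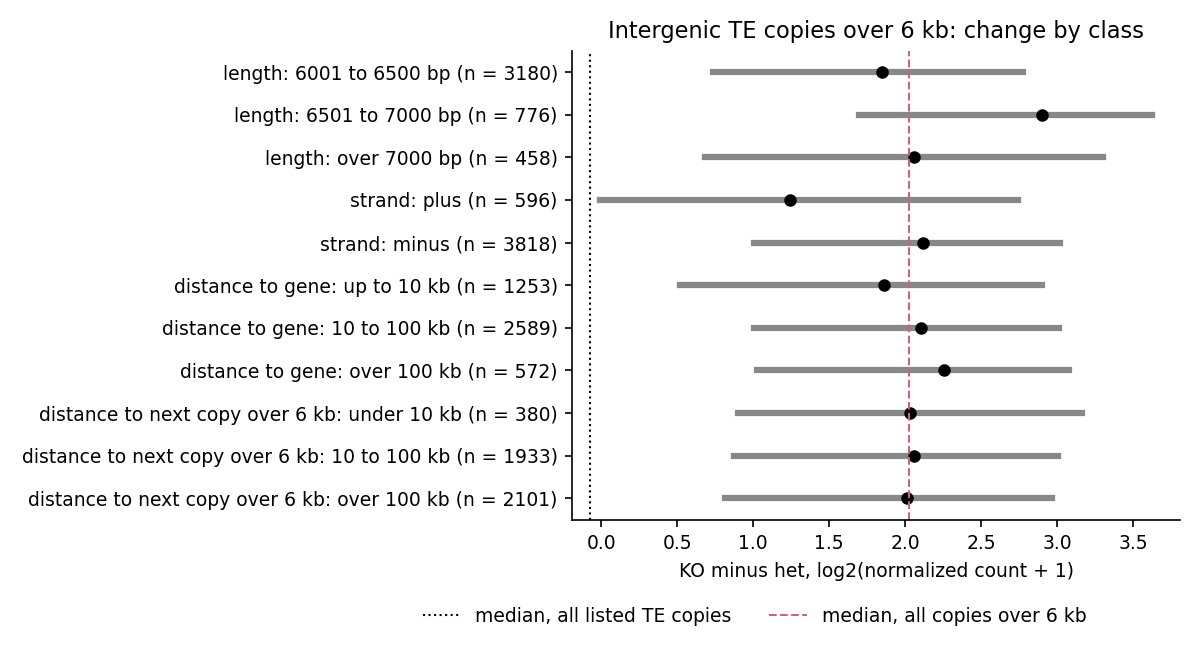
Median (point) and middle range from the lower to the upper quartile (bar) of the change between KO and het, on the log2(normalized count + 1) scale, by length, strand, distance to a gene and distance to the next copy over 6 kb; lines mark the medians of all listed TE copies, -0.07, and of the 4414 copies, 2.02. The medians run from 1.24 on the plus strand to 2.90 at 6.5 to 7 kb.

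Genes beside the copies mostly did not pass the test. Of 842 listed genes within 10 kb of a copy, 492 were tested and 5 were higher in KO, 1.02%, against 0.431% over all 26005 tested genes. None was called lower by limma, against 0.0423% over all genes, although 15 were lower and 41 higher at an unadjusted p under 0.05. In either direction 56 of the 492 passed that unadjusted p, against 1783 of all 26005 tested genes. Among the 492, edgeR on recovered reads called 9 higher and 0 lower, and DESeq2 called 20 higher and 3 lower. The counts of edgeR and DESeq2 over all genes are not given here, so these calls cannot be set against a background share. The median log2 change of the 492 was 0.10. Of 163 tested genes whose nearest copy was itself higher, 2 were higher.

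Those 2 genes were Gm20110 and Gm21050. Gm21050, a processed pseudogene at chr16:56335586-56337378, lies 4719 bases from the chr16 copy with the second highest KO level, on the same strand and upstream of it. It had 10.5, 0.966 and 0 normalized counts in het and 180, 102 and 121 in KO (log2 change 5.54, SE 0.88, limma adjusted p = 0.0285). Gm20110, a lincRNA at chr10:99609171-99658134, had 2.86, 0 and 0 in het and 81.1, 135 and 92.1 in KO. KO and het did not overlap at either gene (for Gm20110 the log2 change was 6.01, SE 0.80, limma adjusted p = 0.0112). Its neighbour, chr10:99661993-99668283 on the opposite strand, had 4.22, 6.73 and 23.0 in het and 120, 177 and 122 in KO. That copy was also higher (log2 change 3.81, SE 0.58, limma adjusted p = 0.00132).

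At the other 3 genes the nearest copy was not called. The copy nearest Gm27216, chr9:83226786-83232794, was too low to be tested, with 0, 4.49 and 0 in het and 3.815, 24.8 and 0 in KO. AA792892, a protein-coding gene at chr5:94339749-94385079, had 0, 1.93 and 3.90 in het and 39.6, 271 and 166 in KO (log2 change 5.66, SE 0.89, limma adjusted p = 0.0272). The copy 1086 bases away, chr5:94386166-94392594, had 72.8, 71.8 and 127 in het and 36.3, 74.3 and 93.2 in KO, groups that overlapped. Gm30735, a lincRNA at chr3:53725477-53733018, had 57.2, 17.4 and 20.5 in het and 414, 240 and 266 in KO (log2 change 3.39, SE 0.48, limma adjusted p = 0.0152). Gm27216, a lincRNA at chr9:83240481-83254540, had the highest level of the 5, with 133, 120 and 90.7 in het and 1019, 1316 and 943 in KO. Its change was 3.25 (SE 0.28, limma adjusted p = 0.00114) and kept its call in all 15 other settings, while the other 4 genes each lost it in 4 to 6. Without KO replicate 1, 2 or 3 the adjusted p of those 4 ran from 0.0711 to 0.209, 0.0524 to 0.154 and 0.122 to 0.232. Without het replicate 1 that of AA792892 was 0.0505, and without het replicate 2 that of Gm21050 was 0.0540.

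Among genes known to silence transposons, Morc1 was the one that limma called. The list holds Morc1, piRNA factors such as Piwil4 and Mael, DNA methyltransferases such as Dnmt3c and Dnmt3l, and histone methylation factors such as Setdb1 and Trim28, 38 genes in all, of which 37 were found and tested. Besides Morc1, limma called 0 of 36, against 0.431% higher and 0.0423% lower over all 26005 tested genes. At an unadjusted p under 0.05, 3 were higher and 2 lower, against 1783 of the 26005 in either direction. edgeR called 0 and DESeq2 called 1, Mov10l1. Mov10l1, an RNA helicase of piRNA production, had 12593, 12337 and 8582 normalized counts in het and 23526, 15170 and 27099 in KO. The KO libraries lay above het (log2 change 0.95, limma adjusted p = 0.252), and the median over the 36 was 0.02. The 3 higher at an unadjusted p under 0.05 were Mov10l1, Cbx5 and Tdrkh, and the 2 lower were Spocd1 and Gtsf1. Spocd1 had 12403, 12184 and 12387 in het and 9982, 4374 and 6255 in KO. At both lower genes every KO library lay below every het library (log2 changes -0.93 and -0.64, limma adjusted p = 0.347 and 0.4675).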

How the data were processed

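Gonocyte RNA of 3 Morc1 het and 3 Morc1 KO libraries at P0 was analysed from 2 deposited tables, genes and TE copies. Columns were assigned by genotype and replicate number, and the stage of the TE columns was taken from the table's name. Per the labels' protocols, total RNA was amplified as cDNA with a SMART-seq kit for low input and sequencing libraries followed an Illumina protocol. Per the submitters' processing notes the build was mm10 (GRCm38) and the tools were bcl2fastq 2.20, cutadapt 1.18, HISAT2 2.1.0, featureCounts 1.5.2 and DESeq2 1.26.0. The handling of strand and of reads matching several places, and the repeat annotation, are not given in the sources used here. Without strand, reads of a copy and of RNA from the other strand cannot be told apart.

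The deposited values are a signal, read counts that the authors divided by 1 size factor per library. Whole reads were recovered from each column's step (tolerance 1e-06 reads), and floors of 3 reads cover counting error only. For the genes of KO replicate 1 the step was too close to 1 for an automatic check of these reads. Start positions were taken as the table gives them.

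The test was limma 3.58.1 (R 4.3.3; two-sided, eBayes with a mean-variance trend) on log2(normalized count + 1) for all 49781 copies whose mean reached 10, adjusted by Benjamini-Hochberg over all of them, and genes likewise. This scale understates the change of low copies. Sums were compared by exact permutation over libraries. edgeR 4.0.16 and DESeq2 1.42.0 on recovered reads were alternatives. The test was checked on simulated data. Ratios of mean sums divide the KO mean by the het mean. Named copies are, by rule, the 10 largest rises, 5 largest falls, 5 highest in each group, 3 longest, 3 farthest from and 3 closest to a gene, the closest pair and the 3 on each side of the length threshold; genes are those called within 10 kb. The copies and lists were chosen with earlier results of these data known. Of the planned sequence features (composition, open reading frames, shared windows), only shared RefSeq windows were analysed here.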

Additional observations from a re-analysis of the deposited data

How the results depend on the processing

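The higher direction of the summed counts, of the reads per 100 gene reads, of the share of TE reads and of the 4 ratios held in every setting run, though for the ratio to copies of 5 to 6 kb the groups overlapped for copies over 7000 bp and for those overlapping no protein-coding gene, and the ratio of summed counts ran from 4.36 (plus-strand copies) to 6.58 (copies over 6500 bp). Of the tested copies over 6 kb, 1851 were higher and 6 lower. The higher count was 756 with a mean of at least 50, 719 for copies over 6500 bp, 219 over 7000 bp and 186 on the plus strand, each over fewer copies. The plus strand was chosen as a setting after seeing the data, as were the minus strand (1665) and copies overlapping no RefSeq gene (1717). The lower count was 1 with a pseudocount of 0.1, 3 with gene size factors and 11 with DESeq2. Leaving out 1 library gave 1182 (without KO replicate 1) to 2093 (without het replicate 3) higher and 0 (without het replicate 1 or 2) to 6 lower. In those fits the lowest counts come with fewer samples. edgeR called 1582 higher and 5 lower. Gene size factors moved the median of all tested copies from 0.03 to 0.38 on the log2 scale. Over all tested TE copies quantile normalization moved the higher share of calls from 95.5% to 84.8%. Copies chr6:9710692-9716961 (-1.20 to 0.73 on the log2 scale over the fits without 1 library, positive without KO replicate 2) and chr10:10518469-10524468 (-0.11 to 1.03, negative without KO replicate 3 and, at -0.03, without het replicate 3), neither of them called, changed sign, and the cause was not tested. Same-numbered libraries did not deviate together (correlations 0.146, -0.244 and -0.117), so the numbers were not read as pairs. With the replicate number as a block, limma called 1688 higher and 4 lower, and the sums gave an exact sign-flip p of 0.25, the smallest it allows. Another 1511 copies had a mean under 10 and were not tested; whether depth or low transcription set this was not tested.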
